A study of Drosophila melanogaster with 10 samples.

Results

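Lysosomal genes of Drosophila S2 cells were followed after RNA interference (RNAi) against JIL-1, a histone kinase of chromatin. The genes were chosen by current symbol: all Vha, LMan, Cts, Npc1, Npc2 and Hexo genes, together with Ids, Sgsh, Gba1a, Gba1b, Lamp1, spin, Mitf and cathD. This rule gave 67 genes. Of these, 33 had a probe set of their own with a mean log2 value above 4 over the 10 arrays and were tested, among 6721 genes and unnamed probe sets in all. The 33 comprised 15 subunits of the proton pump, 11 hydrolases, 4 sterol carriers and the group of Lamp1, spin and Mitf.

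The S2 line was derived from late embryos and has many traits of fly macrophages. In batch A, 2 samples had double-stranded RNA (dsRNA) against a 5' stretch of JIL-1 and 3 control samples had dsRNA against GST. In batch B, 3 samples had dsRNA against a 3' stretch of JIL-1 and 2 control samples had dsRNA against EGFP. Every sample was given 10 µg of dsRNA in serum-free medium for 1 h, the cells were split on day 3, and RNA was taken on day 7. The series calls the samples biological replicates, and nothing more is given on whether cultures were separate in origin. Each dsRNA was used in 1 batch only, so dsRNA and batch cannot be told apart.

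The lysosome is an acidic compartment in which engulfed and worn-out material is digested. Its acidity comes from the vacuolar ATPase (V-ATPase), a pump whose V1 sector hydrolyses ATP at the cytosolic face and whose V0 sector carries protons across the membrane. Hydrolases that work at low pH then cut proteins, sugar chains and sulfated polysaccharides, and the NPC1 and NPC2 proteins pass sterols out of the lumen. In flies, Mitf is a transcription factor that activates V-ATPase and other lysosomal genes.

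Levels are log2 signals that the authors made with GCRMA. A change is the log2 difference of JIL-1 RNAi minus control in limma, fitted to all 10 samples together with batch, and is given with its standard error (SE). Each p was adjusted by Benjamini-Hochberg over all 6721 rows, and a gene passed at an adjusted p under 0.05. The level of one gene is not set against that of another, since probe sets differ in brightness. JIL-1 itself fell by 1.56 (SE 0.08). Its values were 4.35 and 4.35 in JIL-1 RNAi samples against 5.79, 5.95 and 5.66 in controls of batch A, and 5.66, 5.78 and 5.84 against 7.53 and 7.34 in batch B. Array medians over the tested rows lay between 9.23 and 9.42, and precision is limited by how few arrays there are.

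Of the 33 lysosomal genes 2 rose (6.06%) and 12 fell (36.4%), beside 20.8% that rose and 14.9% that fell among all 6721 tested (35.7% in either direction). The proton pump had 6 falls and no rise among 15 genes. Among the 11 hydrolases 5 fell and 2 rose, and these held the largest changes in either direction, LManI at -2.91 and Ids at 1.34. Of the 4 sterol carriers only Npc2a fell, and none of Lamp1, spin and Mitf passed. The median change was -0.10 over the 33 genes (-0.13 for the pump, -0.05 for the hydrolases and 0.001 for the sterol carriers), beside 0.047 over all tested. At a minimum of 1.5-fold, 1 gene rose and 4 fell, all of them hydrolases, while over all tested 1.93% rose and 5.07% fell by that much. In 13 of the 33 every JIL-1 RNAi sample lay below every control of its batch in both batches, and in 1 every sample lay above. Over all tested these shares were 13.4% below and 18.2% above.

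**Figure D1:**
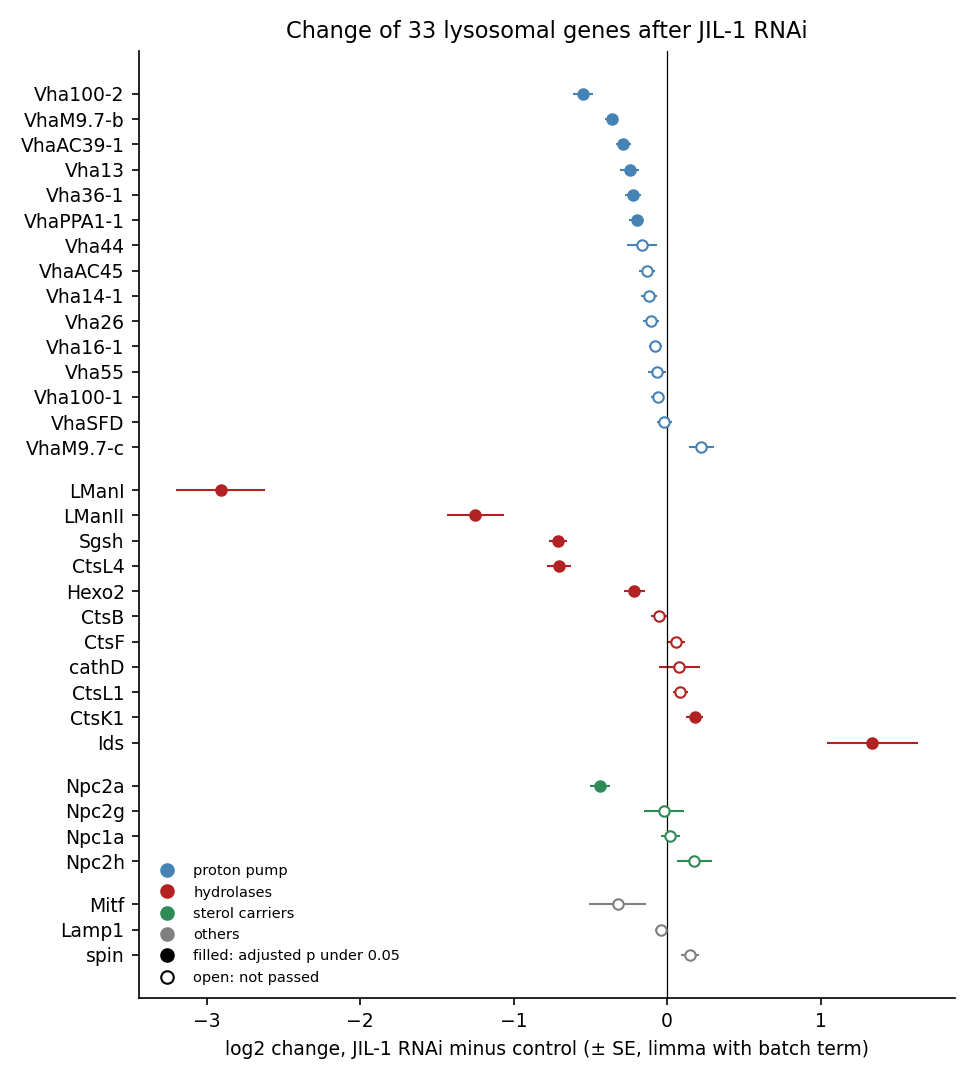
Log2 change of each of the 33 genes (JIL-1 RNAi minus control) with its SE, grouped into proton pump, hydrolases, sterol carriers and others, filled where the adjusted p was under 0.05. The pump genes lie between -0.55 and 0.22, while the hydrolases spread from -2.91 to 1.34.

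The V0 sector of the pump had 4 falls among its 8 tested genes. Vha100-2 encodes an a subunit, the large membrane protein that lines the proton path. Its JIL-1 RNAi samples read 10.53 and 10.83, against 11.30, 11.14 and 11.31 in the controls of batch A. In batch B the values were 10.30, 10.27 and 10.27 after JIL-1 RNAi and 10.78 and 10.84 in controls. All JIL-1 RNAi samples were below the controls of their own batch, although 1 of the batch A samples reached the level of the batch B controls. The change was -0.55 (SE 0.07, adjusted p = 0.000184), a level 1.46-fold lower. The paralog Vha100-1, an a subunit known from synaptic vesicles, changed by -0.06 (SE 0.04, adjusted p = 0.301), with a range of 11.35 to 11.48 after JIL-1 RNAi and 11.42 to 11.49 in controls. Both probe sets are of the type that can share probes with other transcripts.

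VhaM9.7-b encodes an e subunit, a small membrane protein of V0. It read 12.51 and 12.53 after JIL-1 RNAi against 12.91, 12.92 and 12.96 in controls of batch A, and 12.45, 12.42 and 12.42 against 12.75 and 12.74 in batch B. No JIL-1 RNAi sample reached any control in this gene, which fell by 0.36 (SE 0.04, adjusted p = 0.000191). Its paralog VhaM9.7-c had the only positive change of the pump, 0.22 (SE 0.08, adjusted p = 0.0524). VhaM9.7-c read 9.90 and 9.88 against 9.53, 9.66 and 9.90 in batch A, where the groups overlapped, and 9.94, 9.77 and 9.67 against 9.61 and 9.48 in batch B, where they did not. With arrays set to a common median VhaM9.7-c passed the threshold and rose, and the V1 gene Vha14-1 passed as a fall (adjusted p = 0.0452). The pump then held 1 rise and 7 falls. VhaM9.7-c also passed without control replicate 3 (adjusted p = 0.0162) and without JIL-1 RNAi replicate 5 (adjusted p = 0.0448).

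VhaAC39-1, the d subunit that joins the membrane ring to the central stalk, fell by 0.28 (SE 0.05, adjusted p = 0.00202). It gave 11.15 and 11.25 against 11.60, 11.45 and 11.48 in the controls of batch A, and 10.89, 10.97 and 10.91 against 11.15 and 11.22 in batch B. VhaPPA1-1, the c'' subunit of the rotating ring, fell by 0.20 (SE 0.05, adjusted p = 0.0135), with 13.10 and 13.14 against 13.41, 13.35 and 13.38 in batch A and 12.86, 12.76 and 12.80 against 13.02 and 12.88 in batch B. In each of these genes the JIL-1 RNAi samples lay below the controls of their batch. The c subunit gene Vha16-1, which makes up most of that ring, changed by -0.08 (SE 0.04, adjusted p = 0.189). A second probe set of Vha16-1 had mean changes of -0.29 in batch A and -0.17 in batch B, beside -0.06 and -0.09 in the tested one. Over both batches the second ranged from 12.22 to 12.77 after JIL-1 RNAi and from 12.44 to 13.12 in controls. No SE or p is given here for it, so the 2 probe sets leave the size of the change of Vha16-1 uncertain. VhaAC45, an accessory membrane subunit, changed by -0.13 (SE 0.05, adjusted p = 0.0741) although its JIL-1 RNAi samples lay below the controls in both batches.

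The V1 sector had 2 falls among 7 tested genes. Vha13, the G subunit of the outer stalks, read 12.34 and 12.27 after JIL-1 RNAi against 12.61, 12.44 and 12.49 in controls of batch A, and 12.30, 12.21 and 12.05 against 12.45 and 12.50 in batch B. It was lower in all JIL-1 RNAi samples than in any control and fell by 0.24 (SE 0.06, adjusted p = 0.012). Vha36-1, the D subunit of the central stalk, fell by 0.22 (SE 0.05, adjusted p = 0.00895), with 11.80 and 11.60 against 11.95, 11.87 and 11.90 in batch A and 11.53, 11.55 and 11.46 against 11.79 and 11.72 in batch B. The remaining V1 genes were Vha44 (C subunit, -0.16), Vha14-1 (F subunit, -0.12), Vha26 (E subunit, -0.10), Vha55 (B subunit, which binds nucleotide, -0.07) and VhaSFD (H subunit, -0.02), with adjusted p of 0.114 or higher. In all, 14 of the 15 pump genes had a negative change over both batches (93.3%), beside 41.2% of all tested. The sign was the same in both batches in 12 of the 15, including the positive VhaM9.7-c, beside 74.9% of all tested. Vha44 was at 0.01 in batch A, and Vha55 at 0.009 and VhaSFD at 0.03 in batch B. In no pump gene did the difference between the changes of the batches pass the threshold, in a comparison of few samples.

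Most paralogs of the pump were dark on these arrays. Of the 33 Vha genes 16 had a mean of 4 or less and 2, Vha68-1 and Vha68-2, were not analysed here. The A subunit, which hydrolyses ATP, was therefore represented only by Vha68-3, one of the 16. Each other position of the pump had 1 tested gene, except the a and e subunits with 2 each. Over all classes 28 of the 67 genes fell below the filter, none had a value over 4 in any sample, and 20 lay within 0.01 of the lowest value of the table, 2.20, in all 10 samples. The genes just above the limit were Ids (mean 4.88) and Mitf (5.37), and those just below were Npc2b (3.23) and VhaAC39-2 (2.56). Hexo1, Gba1a, Gba1b and Npc1b were not analysed here.

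Among the hydrolases all 3 tested glycosidases of the rule fell, 1 of them, Hexo2, only slightly. LManI and LManII are alpha-mannosidases, which trim mannose from sugar chains, and are direct neighbours on arm 2L. LManI read 2.44 and 2.44 after JIL-1 RNAi against 6.42, 6.11 and 6.20 in controls of batch A, and 5.78, 5.52 and 5.82 against 7.75 and 7.70 in batch B. All 5 JIL-1 RNAi samples were lower than all 5 controls, and those of batch A lay near the lowest value of the table. The fitted change was -2.91 (SE 0.29, adjusted p = 5.69e-05). With values under 4 raised to 4 the fall was 4.73-fold in batch A, where both JIL-1 RNAi samples were raised, and 4.05-fold in batch B, where none was.

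LManII stayed well above the lower end. It read 8.07 and 7.90 after JIL-1 RNAi against 9.90, 9.69 and 9.78 in controls of batch A, and 10.09, 10.17 and 10.21 against 10.80 and 10.90 in batch B. The groups did not overlap within either batch, but batch B samples with JIL-1 RNAi were higher than the batch A controls. LManII fell by 1.25 (SE 0.18, adjusted p = 0.000668), which is 2.38-fold. The remaining LMan genes, LManIII to LManVI, lie side by side elsewhere on 2L and stayed within 0.01 of the lowest value in every sample. Hexo2, a beta-hexosaminidase, fell by 0.21 (SE 0.07, adjusted p = 0.0337), with 12.31 and 12.39 against 12.82, 12.61 and 12.64 in batch A and 12.58, 12.56 and 12.48 against 12.67 and 12.59 in batch B. Within batch A its change was -0.34 (adjusted p = 0.0133) and within batch B -0.09 (adjusted p = 0.492). The small fall over both batches was called in 5 of the 10 fits that left out 1 sample. It lost its call without JIL-1 RNAi replicate 1, 2 or 5 and without control replicate 3 or 4, with an adjusted p of up to 0.103.

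**Figure D2:**
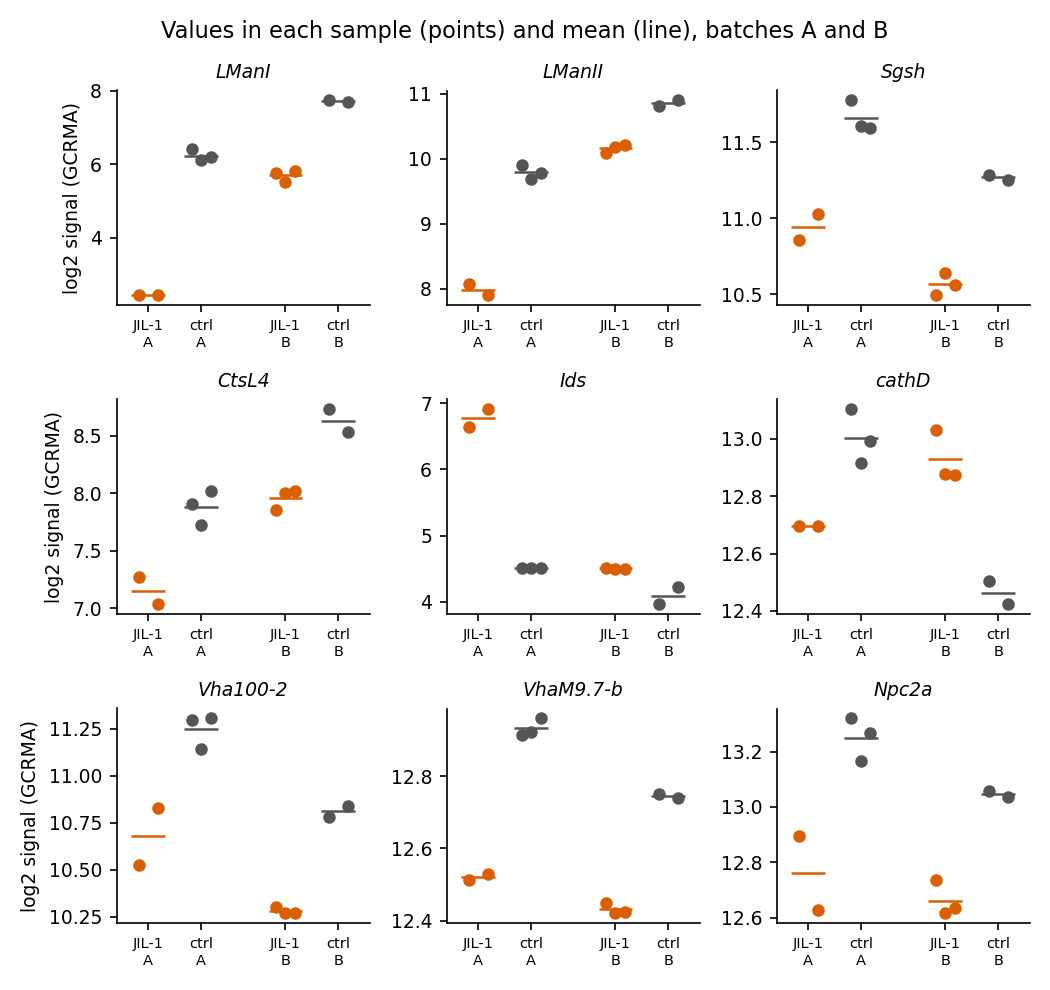
Log2 signal of 9 genes in each sample (points) with the mean of each group (line), JIL-1 RNAi left of its controls in batch A and then in batch B. LManI falls to 2.44 in both JIL-1 RNAi samples of batch A, Ids is high only in those samples (6.65 and 6.91), and cathD is below its controls in batch A and above them in batch B.

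The sulfatases moved in opposite directions. Sgsh and Ids each remove sulfate groups from heparan sulfate, and loss of either enzyme in humans causes a storage disease. Sgsh read 10.86 and 11.03 after JIL-1 RNAi against 11.78, 11.61 and 11.60 in controls of batch A, and 10.49, 10.64 and 10.56 against 11.28 and 11.25 in batch B. All 5 JIL-1 RNAi samples were below all controls, and the change, -0.71 (SE 0.06, adjusted p = 1.47e-05), had the smallest p of the 33 genes. Within batch A it was -0.72 and within batch B -0.71, a difference of 0.01 (SE 0.12, adjusted p = 0.971).

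Ids read 6.65 and 6.91 after JIL-1 RNAi against 4.52 in each of the 3 controls of batch A. In batch B it read 4.52, 4.50 and 4.50 after JIL-1 RNAi against 3.97 and 4.22 in controls. The JIL-1 RNAi samples were thus above the controls of their batch, but those of batch B lay no higher than the controls of batch A, and 4 samples had the same value. Over both batches Ids rose by 1.34 (SE 0.30, adjusted p = 0.00674). The call was lost when dim probe sets were tested too (adjusted p = 0.062), and the adjusted p ran from 0.00141 to 0.248 over all alternatives.

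Of the 6 tested proteases CtsL4 fell and CtsK1 rose. CtsL4, a cysteine protease of the cathepsin L family, read 7.27 and 7.04 after JIL-1 RNAi against 7.90, 7.72 and 8.02 in controls of batch A, and 7.85, 8.00 and 8.02 against 8.73 and 8.53 in batch B. It fell by 0.70 (SE 0.08, adjusted p = 0.000122), with no overlap within either batch. CtsK1, another cysteine cathepsin, read 12.06 and 12.10 against 12.10, 11.92 and 11.97 in batch A, where the groups overlapped, and 11.98, 12.04 and 11.98 against 11.73 and 11.72 in batch B. Its rise was 0.18 (SE 0.06, adjusted p = 0.0331) and was called in 2 of the 10 fits that left out 1 sample, namely without control replicate 1 and without JIL-1 RNAi replicate 1, with an adjusted p of up to 0.0996 in the others. With arrays set to a common median CtsK1 did not pass, and the hydrolases then held 1 rise and 5 falls.

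None of the other cathepsins passed over both batches. CtsL1, the cathepsin L known as a lysosomal marker in flies, changed by 0.09 (SE 0.05, adjusted p = 0.208), CtsB, a cathepsin B, by -0.05 (SE 0.05, adjusted p = 0.435) and CtsF, a cathepsin F, by 0.06 (SE 0.06, adjusted p = 0.471). cathD, the aspartic protease cathepsin D, changed by 0.08 (SE 0.13, adjusted p = 0.668) over both batches, and its batches went opposite ways. It read 12.70 and 12.70 after JIL-1 RNAi against 13.10, 12.91 and 12.99 in controls of batch A, and 13.03, 12.88 and 12.87 against 12.50 and 12.42 in batch B. Its change was -0.31 (adjusted p = 0.0195) in batch A and 0.46 (adjusted p = 0.00394) in batch B.

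Npc2a, a soluble sterol-binding protein of the lysosome lumen, was the sterol carrier that fell. It read 12.90 and 12.63 after JIL-1 RNAi against 13.32, 13.16 and 13.27 in controls of batch A, and 12.74, 12.62 and 12.63 against 13.06 and 13.04 in batch B. Every JIL-1 RNAi sample was below every control, and the change was -0.44 (SE 0.06, adjusted p = 0.000665). Npc1a, the membrane protein that takes sterol from NPC2, changed by 0.02 (SE 0.06, adjusted p = 0.817), with 9.88 to 10.28 after JIL-1 RNAi and 9.89 to 10.15 in controls. Npc2g and Npc2h, neighbours on 3R, changed by -0.02 (SE 0.13, adjusted p = 0.92) and 0.18 (SE 0.11, adjusted p = 0.253). Both differed far more between the batches: the controls of batch B were 1.33 higher than those of batch A in Npc2g (adjusted p = 0.000307) and 1.61 higher in Npc2h (adjusted p = 3.89e-05).

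Mitf read 4.38 and 4.86 after JIL-1 RNAi against 4.46, 4.33 and 4.59 in controls of batch A, and 5.78, 6.01 and 5.90 against 6.89 and 6.51 in batch B. The groups overlapped in batch A, while in batch B all JIL-1 RNAi samples were lower. Its change was -0.32 (SE 0.18, adjusted p = 0.199), 0.16 (adjusted p = 0.493) within batch A and -0.80 (adjusted p = 0.00792) within batch B, while the difference between these changes did not pass (adjusted p = 0.0831). Without JIL-1 RNAi replicate 2 Mitf passed (-0.52, adjusted p = 0.0313), and without JIL-1 RNAi replicate 1 the difference between the batches did (adjusted p = 0.045). The control samples of batch B were 2.24 higher in Mitf than those of batch A (adjusted p = 5.21e-06). Lamp1, an abundant glycoprotein of the lysosomal membrane, changed by -0.04 (SE 0.04, adjusted p = 0.533), and spin, a permease that exports lysosomal products, by 0.15 (SE 0.06, adjusted p = 0.0664). Without JIL-1 RNAi replicate 4 spin passed (0.18, adjusted p = 0.0351).

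**Figure D3:**
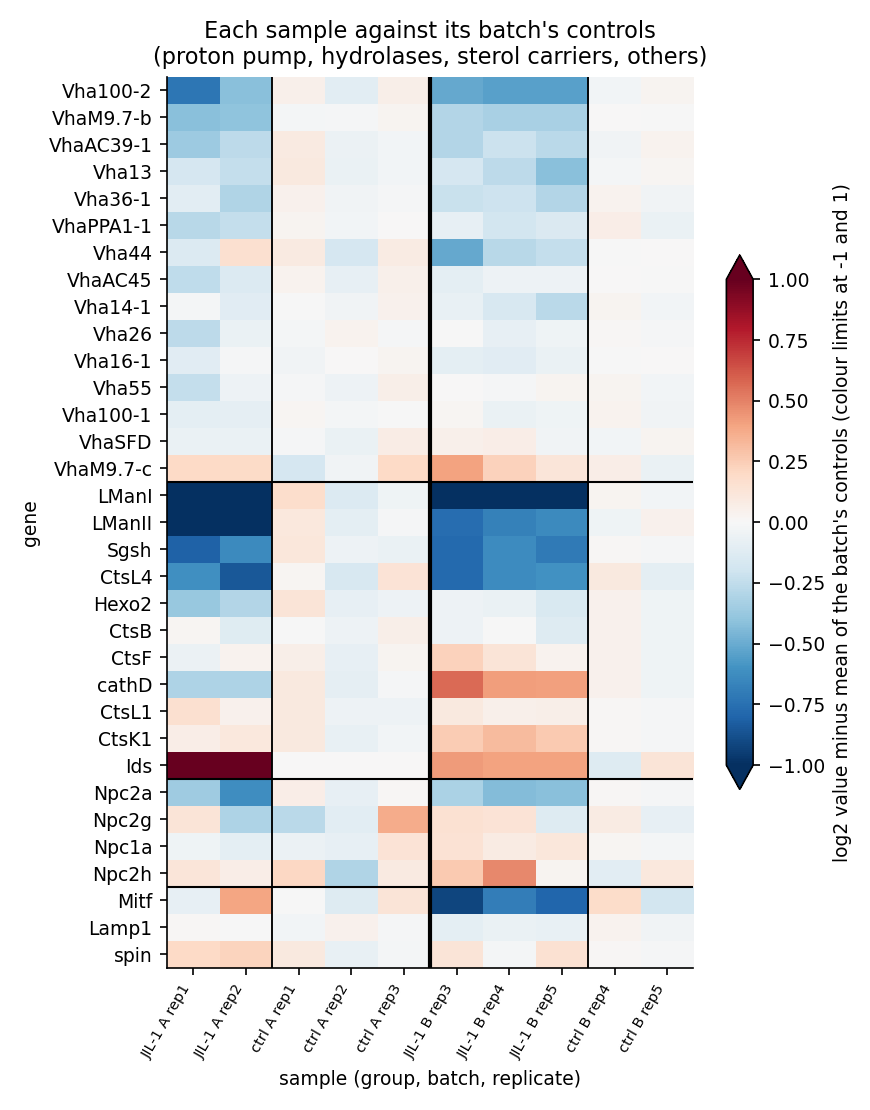
Each sample's log2 value minus the mean of its batch's controls, for the 33 genes (rows, by class) and 10 samples (columns, JIL-1 RNAi left of controls within each batch), with colours limited at -1 and 1. Vha100-2, VhaM9.7-b, Sgsh, CtsL4 and Npc2a are below 0 in all 5 JIL-1 RNAi samples, and cathD is below 0 in batch A and above 0 in batch B.

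The batches ask whether changes arose with either dsRNA. The same direction in both batches was found in 24 of the 33 genes and in 74.9% of all tested. It was also found in all 14 genes that passed and in 2396 of the 2397 rows that passed in the whole table (100% after rounding), but these were called on their change over both batches, which largely fixes that count. The difference between the changes passed the threshold in 4 of the 33 genes (12.1%), beside 1.38% of all tested, and all 4 were hydrolases. LManII fell by 1.81 in batch A and by 0.69 in batch B, a difference of 1.11 (SE 0.12, adjusted p = 0.00227). Ids rose by 2.26 in batch A and by 0.41 in batch B, a difference of -1.85 (SE 0.13, adjusted p = 0.0004). The 3 batch A controls of Ids shared the same low value, so this SE may be too small. In cathD the difference was 0.77 (SE 0.11, adjusted p = 0.0108), a call that ended without control replicate 5 (adjusted p = 0.0801). LManI had a difference of 1.78 (SE 0.16, adjusted p = 0.00113). With values under 4 raised to 4 its changes were -2.24 in batch A and -2.02 in batch B. Their difference of 0.22 did not pass (adjusted p = 0.545). Both JIL-1 RNAi samples of batch A were then at 4, which caps the batch A change at -2.24. The raised fit thus cannot decide whether the changes of LManI differed. The median over the pump was -0.17 with the batch A samples and -0.14 with those of batch B.

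Control samples of the batches also differed in many of these genes, in 20 of 33 (60.6%) beside 62.4% of all tested. Besides Mitf, Npc2g and Npc2h, the controls of batch B were higher in LManI by 1.48 (adjusted p = 7.26e-06), in Vha44 by 1.09 (adjusted p = 6.43e-05) and in LManII by 1.06 (adjusted p = 1.06e-05). They were lower in cathD (-0.54, adjusted p = 0.000349) and in VhaPPA1-1 (-0.43, adjusted p = 0.000466). Without a term for batch only Sgsh, Vha100-2, VhaM9.7-b and Npc2a passed among the 33.

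**Figure D4:**
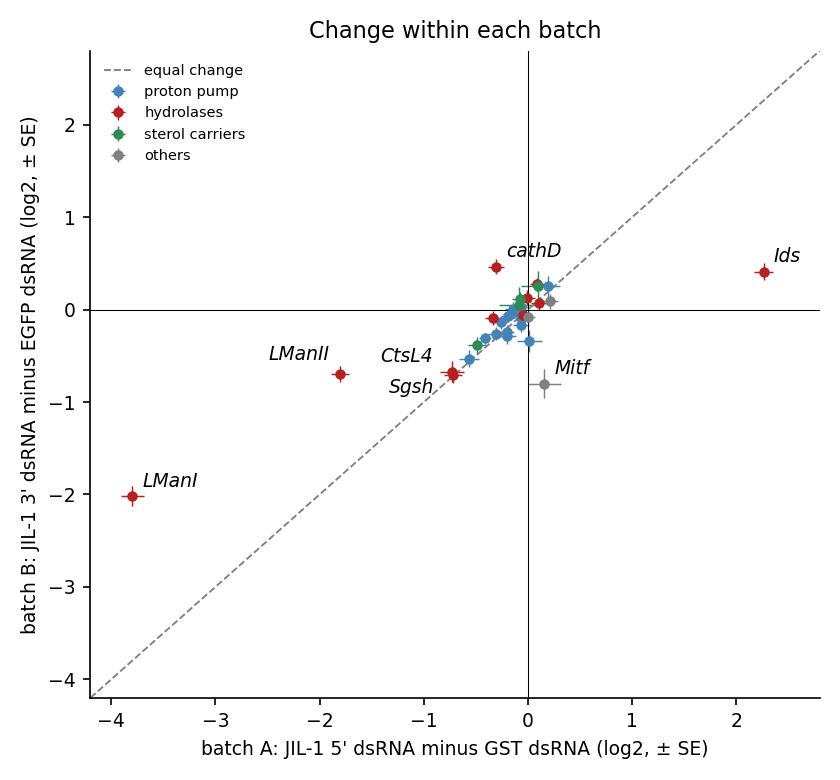
Change in batch A (JIL-1 5' dsRNA minus GST dsRNA, x axis) against change in batch B (JIL-1 3' dsRNA minus EGFP dsRNA, y axis) for the 33 genes, in log2 units with SE, and the line of equal change. LManI, LManII and Ids lie far from that line, with larger changes in batch A. cathD and Mitf are among the genes with opposite signs in the batches.

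Lysosomal genes outside the rule were read from lists of known function. Their counts are set beside the 20.8% that rose, the 14.9% that fell and the median of 0.047 over all tested. Of 12 other tested hydrolases, membrane and sorting genes 3 rose (25%) and 2 fell (16.7%), with a median of -0.03, shares close to those over all tested. Ect3, a beta-galactosidase, fell by 1.25 (SE 0.09, adjusted p = 6.26e-06) and GILT1, a thiol reductase of the lysosome, by 1.01 (SE 0.16, adjusted p = 0.000932). GILT1 fell by 1.44 in batch A and by 0.57 in batch B, and the difference between these changes passed in the fit of 4 means (adjusted p = 0.0432). Lerp, a receptor that sorts enzymes to the lysosome, rose by 0.95 (SE 0.08, adjusted p = 1.5e-05), and Ppt2, a thioesterase, by 0.39 (SE 0.11, adjusted p = 0.0175). Lerp read 9.06 and 9.35 after JIL-1 RNAi against 8.29, 8.46 and 8.36 in controls of batch A, and 9.75, 9.94 and 9.94 against 8.78 and 8.84 in batch B, with no overlap.

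Genes of vesicle delivery to the lysosome had 4 rises (16.7%) and 2 falls (8.33%) among 24 tested, with a median of 0.10, so that both shares were below those over all tested. Both falls were in endosomal factors, Rabex-5, an activator of Rab5 (-0.40, SE 0.06, adjusted p = 0.000606), and lt, the Vps41 subunit of the HOPS tether (-0.42, SE 0.07, adjusted p = 0.000989). Vps33B (0.33, SE 0.07, adjusted p = 0.00618) and Vps16A, a core HOPS subunit (0.30, SE 0.08, adjusted p = 0.0183), rose. Of 21 autophagy genes 2 rose (9.52%) and none fell, also below the overall shares. Atg16 rose by 0.26 (SE 0.06, adjusted p = 0.00875) and Atg10 by 0.37 (SE 0.13, adjusted p = 0.0495). Of 18 genes of nutrient sensing on the lysosome 6 rose (33.3%, beside 20.8%) and none fell, with a median of 0.17. Among the rises were rictor, of the second Tor complex (0.43, SE 0.08, adjusted p = 0.00231), and mio (0.33, SE 0.06, adjusted p = 0.00255) and Iml1 (0.23, SE 0.06, adjusted p = 0.0124), of the complexes that regulate the first. BHD, the fly folliculin, rose by 0.47 (SE 0.12, adjusted p = 0.0126).

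Over the 10 samples, after batch means were removed, the named genes whose values were most like those of Sgsh were CG7888 (Pearson r = 0.996), hng3 (0.989), Prx6c (0.988), yellow-f (0.987) and Pcyt1 (0.987). All 5 fell, with changes of -2.45, -0.65, -2.78, -0.86 and -0.45. These r values describe samples that share the contrast of JIL-1 RNAi with control.

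Of 12 markers of plasmatocytes, the macrophages of the fly, all were tested, and 6 fell (50%, beside 14.9% of all tested) while none rose. The falls were in NimC1 (-2.14, SE 0.16, adjusted p = 9.29e-06), Sr-CI (-1.30, SE 0.07, adjusted p = 1.04e-06), Ppn (-0.90, SE 0.07, adjusted p = 6.38e-06), drpr (-0.75, SE 0.08, adjusted p = 6.92e-05), eater (-0.36) and Hml (-0.29). The other markers did not pass. Their changes over both batches were 0.42 in Pxn, 0.09 in srp, 0.08 in vkg, -0.02 in Col4a1, -0.13 in He and -0.13 in crq. Pxn was at -0.04 in batch A but at 0.88 in batch B, where its JIL-1 RNAi samples lay above the controls. The difference between these changes passed the threshold in the fit of 4 means (adjusted p = 0.00177). The median over the 12 was -0.21, and their mean level per sample was 12.0 to 12.1 after JIL-1 RNAi and 12.6 in each control of batch A, and 11.4 to 11.6 after JIL-1 RNAi and 11.9 in both controls of batch B. Fewer cells of a type and less RNA per cell cannot be told apart in such samples, and the part of these marker falls in the lysosomal results was not tested. Of the markers of fat body, muscle, neurons and glia, testis and midgut, 6 of 22 were tested, of which moody rose and vis fell. The 3' minus 5' signal of Act5C is a measure of RNA integrity. In batch A it was 0.562 to 0.591 after JIL-1 RNAi and 0.543 to 0.657 in controls. In batch B it was 1.54 to 1.72 after JIL-1 RNAi and 1.84 to 2.01 in controls, without overlap. The same signal of GAPDH was 0.593 to 0.743 after JIL-1 RNAi and 0.382 to 0.559 in controls of batch A, without overlap, and 1.27 to 1.43 after JIL-1 RNAi and 1.23 to 1.54 in controls of batch B. With the Act5C signal in the fit 12 of the 14 calls among the 33 genes were kept, and those of CtsK1 and Vha13 were lost. With the GAPDH signal 13 were kept and that of Hexo2 was lost.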

How the data were processed

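Total RNA of 10 S2 cell samples was measured on single-colour arrays. The deposited log2 values came from GCRMA run by the authors, per the submitters' processing notes; neither its version nor whether both batches went through it together is given in the sources used here, and the log2 scale was read from the values. Current symbols came from the supplied platform annotation and the gene table of assembly Release 6. Of 18952 probe sets, the 183 array controls were dropped, each gene was represented by its brightest probe set, and a mean above 4 was required. On each array 50.5% to 51.8% of values were within 0.01 of the lowest, so changes of dim genes are compressed.

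Group and batch were fitted with limma 3.58.1 (R 4.3.3, empirical Bayes, two-sided), and within-batch changes came from a fit of 4 batch-by-group means. The fit was also run on simulated data with independent normal noise and the same change in both batches. That run does not cover changes that differ between batches or values held at the lower end. Every tested gene of the rule is given with values or by range. From each other list up to 4 genes past the threshold with the smallest p are named (all 12 for plasmatocyte markers, the others added after their values were seen), and likeness was computed for the gene with the smallest p. Members and lists were chosen with earlier results of these data known. P-values measure the spread between these samples, which may be technical. No sample was duplicated: replicates within a batch and group differed with an SD of 0.155 to 0.264. Alternatives were other batch terms, filters, normalizations, variance models and call rules, and leaving out each sample. A 3' minus 5' covariate, and values under 4 raised to 4 in the test between batches, were added after the data were seen.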

Additional observations from a re-analysis of the deposited data

Results flagged for a closer look

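In 4 genes the change differed between the batches by the interaction test of the limma fit. The change in batch B minus that in batch A was 1.78 for LManI (adjusted p = 0.00113), 1.11 for LManII (adjusted p = 0.00227), 0.77 for cathD (adjusted p = 0.0108) and -1.85 for Ids (adjusted p = 0.0004). With values under 4 raised to 4 LManI did not pass (0.22, adjusted p = 0.545). Raising caps its batch A change, so that fit cannot decide whether its changes differed. Without control replicate 5 the call of cathD ended (0.73, adjusted p = 0.0801). Each batch had its own dsRNA against JIL-1 and its own control dsRNA, so these cannot be told apart from batch. Over the 5 JIL-1 RNAi samples and the 5 controls of each of the 33 genes, with both batches together, Dixon's criterion marked no sample. Groups within a batch hold too few samples for it. Differences between batches widen the joined groups, so a sample that stood out within its batch could be missed.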

How the results depend on the processing

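Of the 14 calls, those of Sgsh, Vha100-2, VhaM9.7-b and Npc2a held under every alternative run except the 1.5-fold minimum, which among them kept only Sgsh. That minimum left 1 rise and 4 falls, all among hydrolases, with 0 falls of the pump and 0 of the sterol carriers. Without a batch term 0 genes rose and 4 fell, 2 of the pump, 1 of the hydrolases and 1 sterol carrier, and JIL-1 was at -1.26 with an adjusted p of 0.153. Deviations of the 5 same-numbered pairs correlated at -0.295 to 0.24, and the samples of replicate 3 came from different batches. These deviations were taken within very small groups, so the correlations cannot decide whether replicate numbers paired the samples. With the replicate block and the batch term 0 rose and 9 fell, 4 of the pump and 4 of the hydrolases, with Ids at an adjusted p of 0.0636. Without the filter 0 rose and 11 fell, and Ids (0.062), CtsK1 (0.0692) and Hexo2 (0.106) did not pass. The pump gained 1 rise, VhaM9.7-c, with batch as a random block, a mean above 6, array weights, the GAPDH covariate, a robust fit with variance trend, quantile normalization or a common median. The hydrolases kept 1 rise with a mean above 6, a common median or the Act5C covariate, which left 1 rise in all. A variance trend gave 4 rises in all. The pump held 7 falls with a common median or a variance trend, and 8 with array weights.

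When 1 sample was left out, 1 to 2 genes rose and 11 to 12 fell, with 0 to 1 rises in the pump and 1 to 2 among hydrolases. The change between batches was called in 3 to 5 genes. Signs turned only in genes that had not passed. Without a batch term Mitf was at 0.030, Vha44 at 0.019, VhaSFD at 0.035 and Npc2g at 0.26. VhaSFD was at 0.0068 with array weights. Npc2g was at 0.049 with the replicate block, 0.00641 with quantile normalization and 0.043 with the GAPDH covariate. With the Act5C covariate cathD was at -0.12 and Npc1a at -0.042. Without 1 sample cathD ran from -0.025 to 0.17, VhaSFD from -0.040 to 0.0029, Npc2g from -0.087 to 0.081 and Npc1a from -0.0072 to 0.061. Where calls changed, the cause was not tested. Signals near the lowest value limit what can be said of LManI in batch A and of the 28 genes below the filter. Ids had a mean of 4.88, and its 3 controls of batch A shared the value 4.52. This limits what can be said of the size of its rise and of the difference between its batches.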
